A study of Fraxinus excelsior with 182 samples.

Results

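Leaf RNA of 182 European ash trees (Fraxinus excelsior), each with 1 library, was compared between trees with high and trees with low levels of 2 heat shock genes. Each tree was scored by the mean of its z-scores, over all trees, of log2(TPM + 1) for Fe_g35175.1, annotated as a heat shock protein of the HSP90 family, and Fe_g3105, annotated as a small heat shock protein. The 45 trees with the highest score formed the high group, the 45 with the lowest score the low group, and 92 trees lay between them. Of 42665 gene models, 31003 reached at least 1 TPM (a transcript abundance scaled for coding length and to a fixed sum in each library) in at least 19 trees, and 31001 were compared once both scoring genes were set aside.

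The trees belong to a Danish panel in which leaf expression was related to damage by ash dieback, a fungal disease. The labels place all 182 libraries in 1 group, leaves identified by a tree number, and name no heat treatment, age, sampling day or batch. High and low are therefore groups defined by measured RNA levels and not by a treatment. Each group consists of separate trees, so the spread between libraries contains both tree and sampling differences, which cannot be told apart here.

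Heat shock proteins are molecular chaperones. HSP90 uses ATP to help client proteins such as kinases and receptors reach an active fold. Small heat shock proteins hold unfolding proteins in a state from which other chaperones can refold them, and their transcripts are known in plants for steep induction by heat and other stresses. Heat shock transcription factors bind the promoters of such genes, and chaperonins are barrel-shaped folding machines of plastids and mitochondria. In bulk leaf RNA, a change in the number of cells of a type and a change in RNA per cell cannot be told apart.

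Both scoring genes were low in most trees. The level of Fe_g35175.1 had a lowest, median and highest value of 0.163, 0.431 and 1.27 TPM in the low trees, of 0.312, 0.864 and 2.43 TPM in the middle trees and of 0.739, 2.91 and 38.3 TPM in the high trees. The level of Fe_g3105 ran over 0.156, 0.929 and 1.82 TPM in the low trees, 0.189, 1.54 and 3.67 TPM in the middle trees and 2.25, 4.80 and 52.7 TPM in the high trees. Neither gene was listed at 0 in any tree. These values chose the groups and are a description without a test. The sequencing depth behind a TPM value is unknown, and levels near 1 TPM can rest on few reads.

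The score had a long upper tail. It ran from -0.999 to -0.58 in the low trees and from 0.21 to 4.19 in the high trees, with a median of 0.88. A set of 10 trees lay above 2, and the next tree had 1.87. Ash200 had the highest score, with 38.3 TPM of Fe_g35175.1 and 40.6 TPM of Fe_g3105. Ash194 followed with 17.05 and 52.7 TPM. The upper boundary fell in a continuous part of the range. Ash116, just inside the high group, had a score of 0.2129 with 1.24 TPM of Fe_g35175.1 and 3.28 TPM of Fe_g3105. Ash153, just outside, had a score of 0.21269 with 1.55 and 2.69 TPM. At the lower boundary, Ash46 inside the low group had a score of -0.58 with 0.691 and 0.980 TPM, and Ash78 outside it had a score of -0.57 with 0.705 and 0.993 TPM.

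The scoring genes went together mainly in trees with high levels. Across all 182 trees Pearson's r between their log2(TPM + 1) values was 0.838 and Spearman's rho 0.552. Across the trees with a score at or under 2, r was 0.604 and rho 0.469. In the 45 high trees r was 0.896 and rho 0.715. The negative r of -0.42 in the middle trees and -0.53 in the low trees is in part built in, because a narrow band of the mean leaves little room for both genes to be high or low. These correlations are given as descriptions of the values that made the score.

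**Figure D1:**
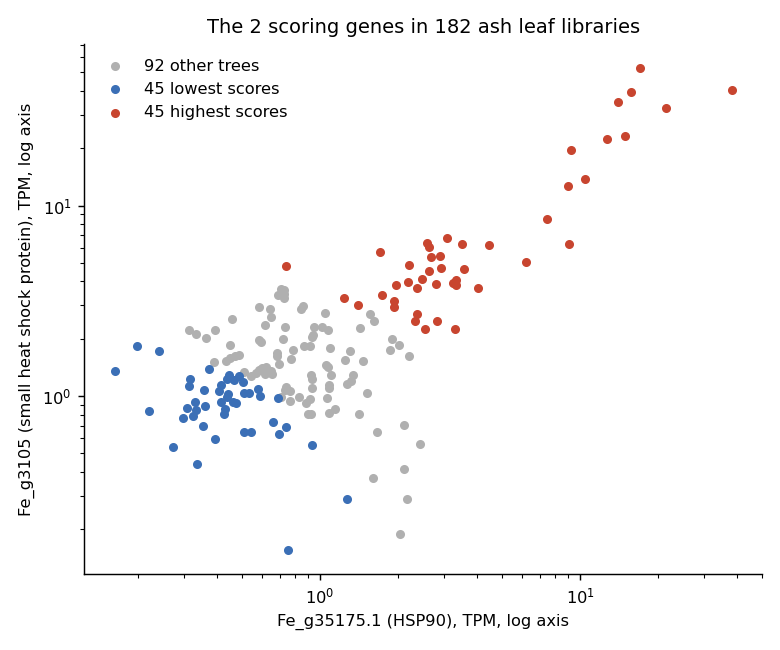
Levels of Fe_g35175.1 (x axis) and Fe_g3105 (y axis) in TPM, both on log axes, with 1 point for each of 182 trees, coloured by score group. The 10 trees with a score above 2 form the upper right corner, from 8.95 to 38.3 TPM of Fe_g35175.1, while the 45 low trees stay at or under 1.27 TPM.

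High scores were unevenly spread over the tree numbers in the labels. The mean tree number was 151.07 ± 65.4 (SD, n = 45) in the high trees and 63.5 ± 46.9 (SD, n = 45) in the low trees, a difference of 87.6 (two-sided permutation test, p = 2e-05, the smallest that 100000 resamples can give, adjusted p = 6e-05 over 9 library measures). Of the 31 trees numbered above 180, 22 were high, 9 were middle and 0 were low. All 10 trees with a score above 2 lay between Ash191 and Ash218. The trees numbered up to 180 comprised 23 high, 83 middle and 45 low trees. High trees also occurred at low numbers, with 4 among the 16 trees numbered up to 20. The sample list holds 2 ascending series of tree numbers. Every high tree numbered below Ash107, these 4 included, belonged to the second series. The labels do not say what the numbers stand for, and their part in the gene differences was examined only through the fits given here. Main values below are set beside values with tree number in the model and values within trees numbered up to 180.

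**Figure D2:**
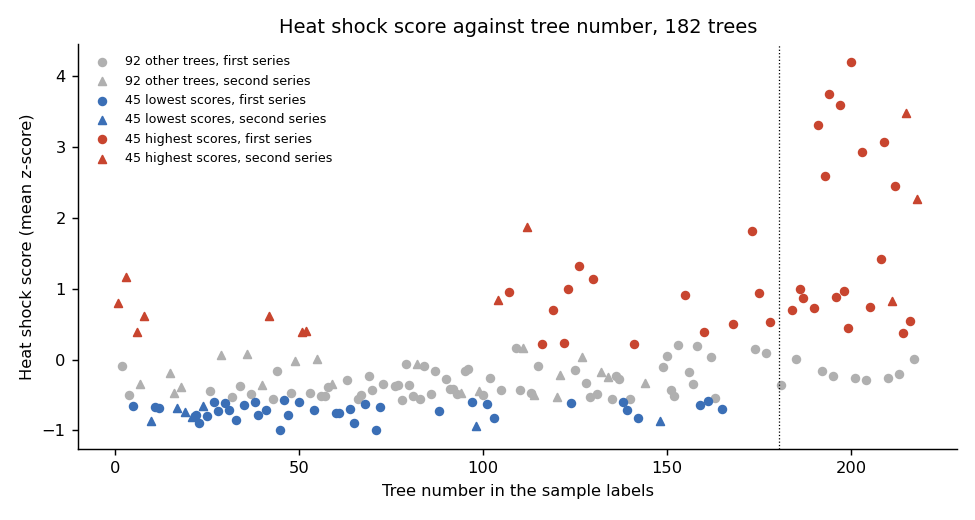
Heat shock score (y axis, mean z-score) against the tree number in the labels (x axis) for 182 trees, coloured by score group, with circles for the first and triangles for the second ascending series of the sample list. To the right of the dotted line at number 180 there are 22 high, 9 middle and 0 low trees.

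Other library measures differed to varying degrees. The number of genes above 0 TPM was 33724 ± 411 (SD) in the high and 33522 ± 455 (SD) in the low trees (permutation test, adjusted p = 0.045). The 10 most abundant genes held 6.74 ± 1.89% (SD) of the TPM in the high and 6.24 ± 1.68% (SD) in the low trees (adjusted p = 0.25). Of the first 5 principal components of expression, the second and the third separated the groups most (both adjusted p = 6e-05), the first, which held 30.5% of the variance, and the fourth less so (both adjusted p = 0.044), and the fifth did not pass (adjusted p = 0.51). The sample list runs through ascending tree numbers in 2 series, and the second series held 12 high and 7 low trees against 33 and 38 in the first (Fisher's exact test, p = 0.3, adjusted p = 0.34). The part of these measures in the gene differences was examined only by adding them to the model.

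A large share of the leaf transcriptome differed between high and low trees, mostly by small amounts. With limma on log2(TPM + 1) and Benjamini-Hochberg adjustment over 31001 genes, 4373 genes were higher in the high trees (14.1% of those tested) and 5276 were lower (17%), 31.1% in either direction at an adjusted p of 0.05 or less. The median size of the difference among called genes was 0.33 on the log2 scale for the higher and 0.26 for the lower genes. The median over all genes was -0.02. A difference of at least 1.5-fold was reached by 729 higher and 244 lower genes, one of at least 2-fold by 0.381% of the genes tested in the higher direction and by 19 genes (0.0613%) in the lower direction, and one of at least 4-fold by 6 higher and 0 lower genes. All folds here are on the log2(TPM + 1) scale, which understates changes of genes near 1 TPM. With median-of-ratios scaling 5116 genes were called higher and 4678 lower, so which direction held more genes depended on the scaling.

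Part of the differences was also called with tree number in the model. With tree number as a covariate, 3180 of the 4373 higher and 3097 of the 5276 lower genes were called in the same direction, and within the trees numbered up to 180 (23 high against 45 low) 3607 and 3647 were. With the first 5 principal components as covariates, which also take up differences between the groups, 613 and 716 were. The large differences were called more often, which is in part built in, because these genes were chosen by size of difference in the same trees. Of the genes at least 2-fold higher, 96.6% were called higher with tree number as a covariate, 97.5% within the trees numbered up to 180, all without the 10 trees with a score above 2, and 42.4% with 5 principal components. Of the 19 genes at least 2-fold lower, 15, 17, 18 and 11 were called under the same fits. Of all genes tested, 15.2% were called higher and 12.7% lower with tree number as a covariate. Within the trees numbered up to 180 these shares were 19.9% and 18.8%, and with 5 principal components 5.51% and 4.65%.

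The same relation was examined in the 92 middle trees, which the comparison of extremes did not use. The slope of each gene on the score was called rising for 2115 genes (6.82% of those tested) and falling for 1202 (3.88%), 10.7% in either direction. With median-of-ratios scaling the counts were 1926 and 1882, so the excess of rising genes depended on the scaling. Of the genes at least 2-fold higher in the high trees, 76 (64.4%) were called rising in the middle trees, 0 were called falling, and 98.3% had a positive slope, against 52.7% positive slopes among all genes tested. Of the 19 genes at least 2-fold lower, 12 were called falling, 0 rising, and 16 had a negative slope. Middle and extreme trees come from the same panel and share its tree numbers. With tree number in the model the middle trees gave 1303 rising and 376 falling genes, and with 5 principal components 1 rising gene and 0 falling (limma, 769 positive and 1002 negative slopes at an unadjusted p under 0.05).

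**Figure D3:**
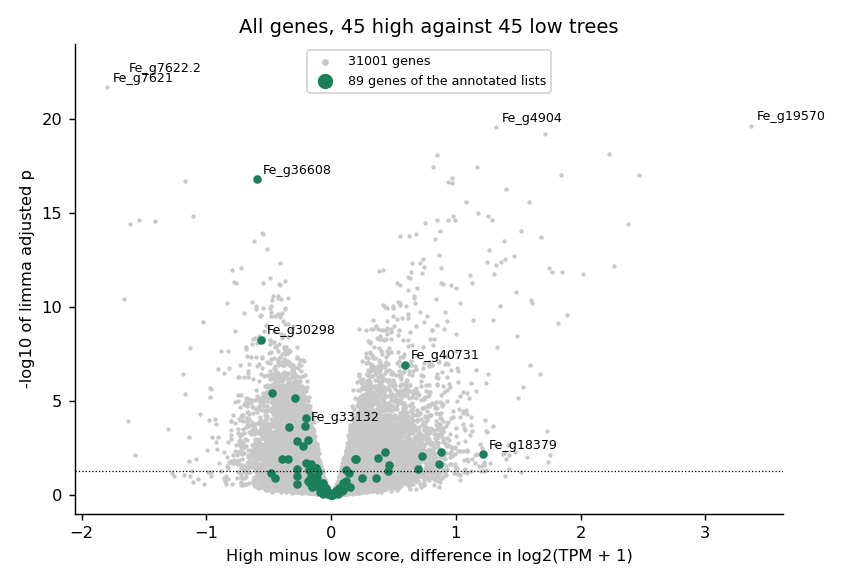
Difference between 45 high and 45 low trees in log2(TPM + 1) (x axis) against -log10 of the limma adjusted p (y axis) for 31001 genes, with 89 genes of the annotated lists in green and a dotted line at an adjusted p of 0.05. The differences run from -1.79 for Fe_g7621 to 3.37 for Fe_g19570, and the green points lie between -0.59 and 1.22.

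The largest difference belonged to Fe_g19570, a gene model for which the sources used here gave no annotation. Its level had a lowest, median and highest value of 3.33, 7.17 and 147.01 TPM in the low trees, 3.44, 24.3 and 154.56 TPM in the middle trees and 17.3, 117.2 and 518 TPM in the high trees. All 45 high trees lay above the low median, 15 lay above the highest low tree, and the groups overlapped. The difference was 3.37 ± 0.24 (SE) on the log2 scale, 10.3-fold (limma, adjusted p = 2.3e-20). It was 3.0 with tree number as a covariate and 3.19 within trees numbered up to 180. Within the first series of the sample list it was 3.57. Within the second series, with 12 high and 7 low trees, it was 2.04 and uncalled. In the first series no high tree was numbered below Ash107, while most low trees were. Differences within the first series, here and for other genes below, therefore do not separate the score from tree number.

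Fe_g4904, also without annotation, showed the cleaner separation of the higher genes described. Its level ran over 0.167, 0.811 and 2.30 TPM in the low, 0.450, 1.56 and 6.03 TPM in the middle and 0.723, 3.81 and 8.18 TPM in the high trees. In 36 of 45 high trees it exceeded the highest low tree. The difference was 1.32 ± 0.10 (SE) on the log2 scale, 2.50-fold (adjusted p = 2.7e-20), and 0.996 with tree number as a covariate.

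The genes with the lowest moderated t, Fe_g7621 and Fe_g7622.2, have neighbouring identifiers and no annotation. Fe_g7621 ran over 1.55, 7.12 and 19.9 TPM in the low, 0.379, 4.52 and 10.9 TPM in the middle and 0.366, 1.15 and 3.26 TPM in the high trees. In 30 of 45 high trees it was below the lowest low tree. The difference was -1.79 ± 0.12 (SE) on the log2 scale (adjusted p = 1.9e-22), and -1.41 with tree number as a covariate. Fe_g7622.2 ran over 1.24, 5.63 and 14.1 TPM in the low and 0.351, 1.03 and 3.0035 TPM in the high trees, with 28 high trees below the lowest low tree and a difference of -1.67 ± 0.11 (SE, adjusted p = 5.7e-23). Salmon divides reads among similar transcripts, so values of adjacent models that may be copies of each other are uncertain as separate values. Among the 19 genes at least 2-fold lower, 10 had another of the 19 at the next identifier number, in 5 pairs. Among the genes at least 2-fold higher 16 did, in 7 runs.

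The genes around the scoring genes did not differ as a block. Of 15 tested models within 10 identifier numbers of Fe_g35175.1, 3 were higher and 0 lower in the high trees. Of 16 around Fe_g3105, 1 was higher and 0 lower. The share of all tested genes called higher was 14.1%.

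The other annotated heat shock genes did not rise with the scoring genes in the comparison of high with low trees. The annotations used here come from the study's set of genes related to dieback damage in these same trees, to which both scoring genes also belong, so the direction of the 89 annotated genes described from here on is not independent evidence. Fe_g33132, a heat shock transcription factor, ran over 2.81, 4.04 and 5.55 TPM in the low, 2.24, 4.14 and 6.44 TPM in the middle and 2.22, 3.34 and 5.98 TPM in the high trees. It was lower in the high trees, below the low median in 37 of 45, although the groups overlapped widely. The difference was -0.21 ± 0.04 (SE, adjusted p = 0.00021), and it was -0.23 with tree number as a covariate, -0.20 within trees numbered up to 180 and -0.24 with 5 principal components, called in each. In the middle trees the slope of Fe_g33132 was -0.19 per unit of score and not called (limma, adjusted p = 0.28).

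Fe_g36128, the chloroplast 10 kDa chaperonin that caps the plastid folding chamber, was abundant in all groups. It ran over 144.48, 400 and 634 TPM in the low, 93.7, 385 and 636 TPM in the middle and 121.14, 437 and 822 TPM in the high trees. The difference was 0.09 ± 0.12 (SE, 95% interval -0.16 to 0.33, adjusted p = 0.62), and it turned to -0.12 with tree number as a covariate and to -0.25 within trees numbered up to 180, uncalled in both. With the score as a number over all 182 trees its slope was 0.14 and called rising (adjusted p = 0.019). Without the 10 trees with a score above 2, the difference between the groups was -0.13, uncalled (adjusted p = 0.42). Of the 2 other heat shock and chaperone genes, 0 were higher and 1 was lower in the comparison of groups, beside 14.1% and 17% of all genes. The name heat shock score stands here for the 2 genes that define it and not for the heat shock response as a whole.

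Prohibitins are scaffold proteins of the inner mitochondrial membrane. Fe_g3120 ran over 5.36, 10.8 and 15.9 TPM in the low and 4.31, 8.14 and 15.4 TPM in the high trees, a difference of -0.34 ± 0.07 (SE, adjusted p = 0.00024). It remained called with tree number as a covariate (-0.23, adjusted p = 0.0499) and was not called within the trees numbered up to 180 (-0.12, adjusted p = 0.22). Its neighbour by identifier, Fe_g3121, had medians of 23.8 TPM in the low and 22.4 TPM in the high trees and a difference of -0.12 ± 0.06 (SE, adjusted p = 0.12). With 5 principal components the calls changed places, with Fe_g3121 called (-0.26, adjusted p = 0.021) and Fe_g3120 not (-0.19, adjusted p = 0.23). Fe_g3121 was also called falling on the score as a number over 182 trees (-0.08, adjusted p = 0.0028).

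Of the 89 annotated genes, 12 were higher (against 14.1% of all genes) and 18 were lower (against 17%) in the high trees. The median difference was -0.03, beside -0.02 over all genes. As shares these are 13.5% and 20.2% of the annotated genes. With tree number as a covariate 4 were higher (4.49%, against 15.2% of all genes) and 10 lower (11.2%, against 12.7%). With 5 principal components 1 was higher (1.12%, against 5.51%) and 16 were lower (18%, against 4.65%). Within trees numbered up to 180, 16 were higher (18%, against 19.9%) and 7 lower (7.87%, against 18.8%). The shares thus moved with the fit, and these differences in share were not tested. For the slope on the score in the middle trees, 4 of the 89 were called rising and 2 falling, beside 6.82% and 3.88% of all genes.

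The gene with the strongest separation among them was Fe_g36608, a heterogeneous nuclear ribonucleoprotein, a class of proteins that bind pre-mRNA and take part in its processing. Its level ran over 10.9, 16.3 and 24.9 TPM in the low, 7.98, 14.8 and 22.4 TPM in the middle and 7.09, 10.6 and 14.6 TPM in the high trees. All 45 high trees lay below the low median and 25 lay below the lowest low tree. The difference was -0.59 ± 0.05 (SE, adjusted p = 1.6e-17), and it was -0.56 with tree number as a covariate, -0.53 within trees numbered up to 180 and -0.66 with 5 principal components. In the middle trees the slope was -0.54 ± 0.15 per unit of score (SE, adjusted p = 0.015). Within the first series of the sample list the difference was -0.65, and within the second -0.27, uncalled there.

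Other RNA and chromatin genes moved less. Of the 9 in that list, 0 were higher and 3 lower, beside 17% of all genes lower. Besides Fe_g36608 these were Fe_g23724, a GAGA-binding transcription factor (medians of 22.99 TPM in the low and 19.9 TPM in the high trees, difference -0.19 ± 0.05, SE), and Fe_g39849.1, a CASC3/Barentsz protein of the exon junction complex (3.12 and 2.65 TPM, difference -0.12 ± 0.05, SE). Neither was called with tree number as a covariate, and Fe_g39849.1 turned to 0.01 within trees numbered up to 180.

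Of the 5 clock and light signalling genes, 0 were higher and 4 lower, beside 17% of all genes lower. Fe_g30298, a ZEITLUPE type F-box protein, belongs to a family that in Arabidopsis senses blue light and marks clock proteins for degradation. It ran over 8.61, 15.2 and 22.5 TPM in the low, 7.04, 13.996 and 24.5 TPM in the middle and 3.64, 9.66 and 16.2 TPM in the high trees. Of the high trees, 41 of 45 were below the low median and 14 below the lowest low tree. In the middle trees the slope was -0.42 per unit of score and not called (limma, adjusted p = 0.066). The difference was -0.56 ± 0.07 (SE, adjusted p = 5.3e-09), with -0.44 with tree number as a covariate and -0.39 within trees numbered up to 180, called in both. Within the first series of the sample list it was -0.63, and within the second -0.25, uncalled there.

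Fe_g45829, a COL9 protein of the CONSTANS-like family of light-regulated transcription factors, varied most among the low and middle trees. It ran over 0.105, 0.871 and 3.20 TPM in the low, 0.0368, 0.645 and 3.15 TPM in the middle and 0.108, 0.386 and 0.916 TPM in the high trees. In 43 of 45 high trees it was below the low median, with no high tree below the lowest low tree. The difference was -0.47 ± 0.08 (SE, adjusted p = 3.7e-06), it was -0.57 with tree number as a covariate, and the slope in the middle trees was called falling (adjusted p = 0.039). In the 12 high and 7 low trees of the second series it was 0.02, uncalled.

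The remaining called clock genes had smaller differences. Fe_g28326, an APRR1 response regulator related to an evening component of the Arabidopsis clock, had medians of 12.2 and 11.2 TPM in the low and high trees (difference -0.12 ± 0.05, SE). Fe_g10721, an embryonic flower protein of a kind that in Arabidopsis holds back reproductive development, had medians of 2.16 and 1.65 TPM (difference -0.18 ± 0.07, SE). Neither was called with tree number as a covariate, and Fe_g10721 turned to 0.10 within trees numbered up to 180. With median-of-ratios scaling Fe_g28326 and Fe_g10721 were also uncalled (limma, adjusted p = 0.054 and 0.064). The labels give no hour of sampling, so its part in the levels of clock genes was not tested.

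Fe_g40731, a 9-cis-epoxycarotenoid dioxygenase, the enzyme class that commits carotenoids to abscisic acid synthesis, was higher in the high trees. It ran over 0, 0.552 and 2.13 TPM in the low, 0, 0.697 and 3.0009 TPM in the middle and 0.248, 1.28 and 5.08 TPM in the high trees. Of the high trees, 41 of 45 lay above the low median and 9 above the highest low tree. The difference was 0.60 ± 0.09 (SE, adjusted p = 1.2e-07), it was 0.45 with tree number as a covariate and 0.37 within trees numbered up to 180, and the middle trees were called rising (adjusted p = 0.027). With 5 principal components it was 0.27 and not called (adjusted p = 0.15). Within the first series of the sample list it was 0.69, and within the second 0.28, uncalled there. Of the other 3 plastid pigment and isoprenoid genes, Fe_g5474, the divinyl reductase of chlorophyll synthesis, was lower (medians of 21.4 and 18.8 TPM, difference -0.20 ± 0.07, SE), and 2 were not called. Fe_g5474 was also called with tree number as a covariate (-0.26) and within trees numbered up to 180 (-0.34). It was uncalled with median-of-ratios scaling (limma, adjusted p = 0.069), bands of numbers (0.060), 5 principal components (0.28) and the score as a number over 182 trees (0.61).

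**Figure D4:**
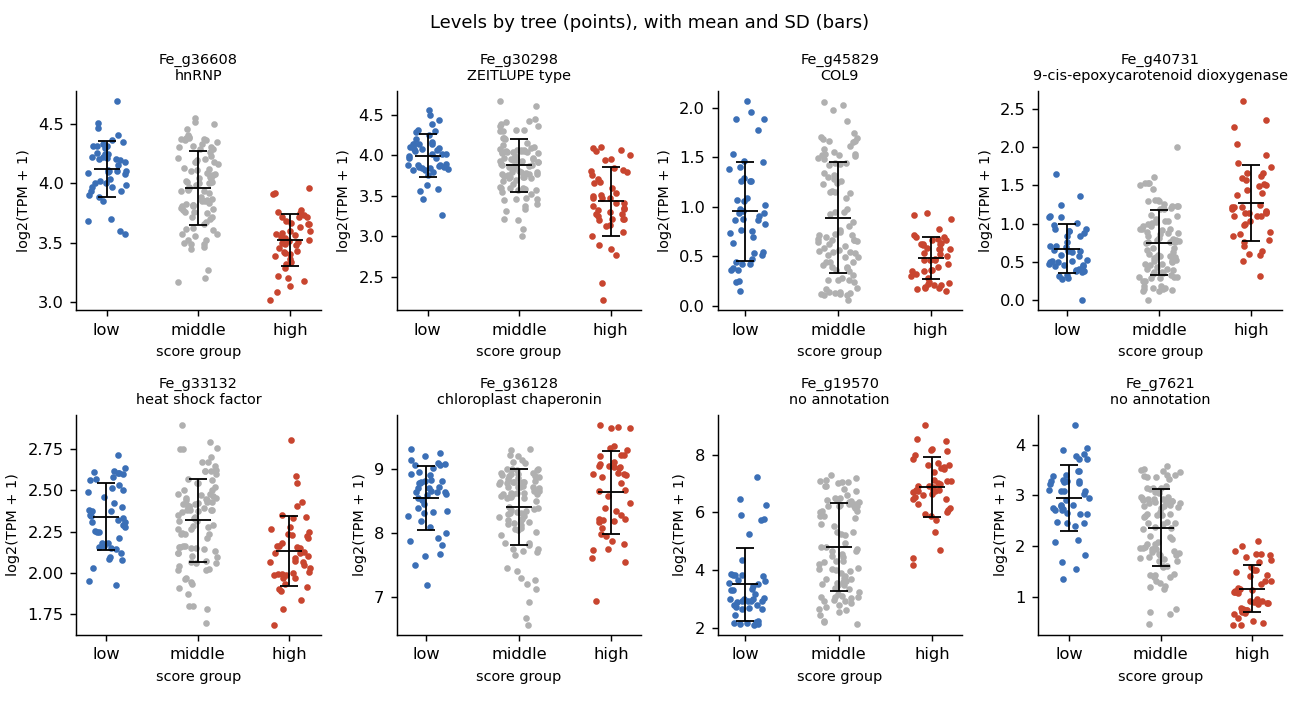
Levels in log2(TPM + 1) (y axes, each panel with its own range) of 8 genes in 45 low, 92 middle and 45 high trees, with 1 point a tree and bars for the mean and SD. Fe_g36608, Fe_g30298, Fe_g45829, Fe_g33132 and Fe_g7621 are lower in the high trees, Fe_g40731 and Fe_g19570 are higher, and the chaperonin Fe_g36128 overlaps widely between all groups.

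MADS-box transcription factors time flowering, bud dormancy and organ shedding. SOC1 promotes flowering in Arabidopsis, SVP delays it, and JOINTLESS was named in tomato for the joint where fruits detach. Of 4 SOC1-like genes 2 were higher, of 6 JOINTLESS-like genes 5 were higher, and the SVP-like gene was not called, beside 14.1% of all genes higher. JOINTLESS-like Fe_g18379 was listed at 0 in 19 low, 23 middle and 9 high trees. It ran over 0, 0.133 and 18.99 TPM in the low, 0, 7.40 and 22.3 TPM in the middle and 0, 9.92 and 23.7 TPM in the high trees. The difference was 1.22 ± 0.36 (SE, adjusted p = 0.0065). SOC1-like Fe_g40351.1 ran over 0, 11.5 and 28.2 TPM in the low and 0.618, 19.5 and 37.7 TPM in the high trees, a difference of 0.88 ± 0.25 (SE, adjusted p = 0.0051). The groups overlapped over nearly their whole range in both genes.

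The remaining called members were SOC1-like Fe_g19663 with 0.70 ± 0.27 and JOINTLESS-like Fe_g18374, Fe_g18376, Fe_g18375 and Fe_g18373.1 with 0.86 ± 0.30, 0.73 ± 0.22, 0.44 ± 0.13 and 0.37 ± 0.12 (differences ± SE). Uncalled were Fe_g40353 (0.45, adjusted p = 0.0502), Fe_g40350 (0.15), Fe_g36254 (-0.02) and the SVP-like Fe_g22999 (-0.48, adjusted p = 0.069). These differences moved with tree number. With tree number as a covariate none of the 11 MADS-box genes was called, and Fe_g18379 had a difference of 0.17 (95% interval -0.67 to 1.01, adjusted p = 0.80). Within trees numbered up to 180 Fe_g18379 had 1.54 and Fe_g40351.1 1.06, both called, but the 23 high trees there still had higher numbers than the 45 low trees (mean 103.13 ± 59.4 against 63.5 ± 46.9, SD), and with tree number as a covariate in that range the values were 0.57 (adjusted p = 0.16) and 0.47 (adjusted p = 0.19). Within trees numbered up to 180 the SVP-like Fe_g22999 was called lower (-0.76, adjusted p = 0.016) and Fe_g40353 higher (0.57, adjusted p = 0.045), while Fe_g18374 (0.60, adjusted p = 0.25) and Fe_g18373.1 (0.32, adjusted p = 0.094) were not called. In the middle trees 0 of the 11 were called. None of the 11 was called with 5 principal components or with the score as a number over 182 trees. For Fe_g18379 the limma adjusted p was 0.40 and 0.23 in these 2 fits. Reads of similar MADS-box copies can be divided among them, so single members are uncertain.

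**Figure D5:**
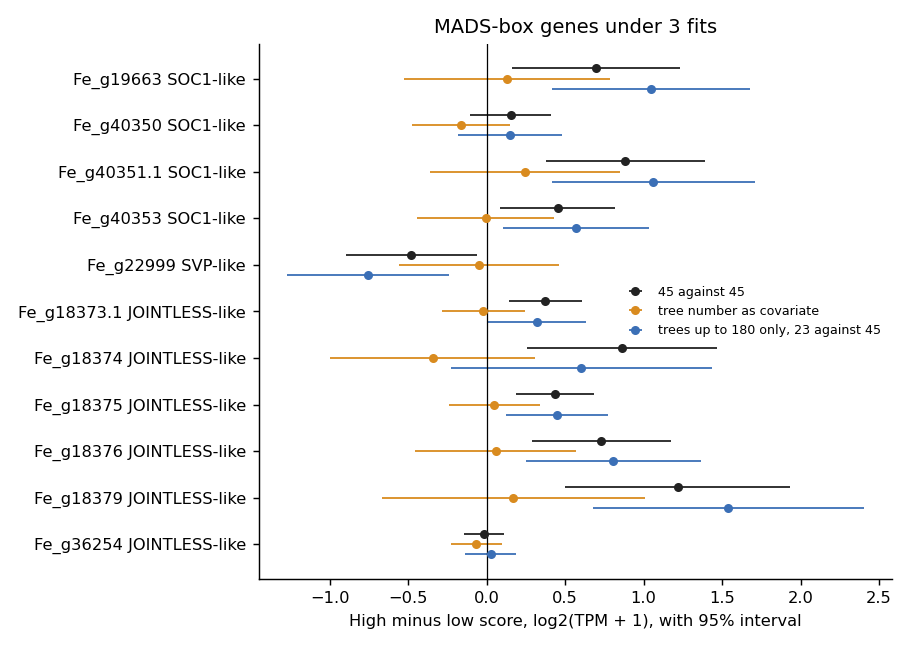
Difference between high and low trees in log2(TPM + 1) with its 95% interval (x axis) for 11 MADS-box genes, in the comparison of 45 with 45 trees (black), with tree number as a covariate (orange) and within trees numbered up to 180 (blue, 23 against 45). Fe_g18379 has 1.22, 0.17 and 1.54, and all orange intervals include 0.

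Of 6 protein kinases, 0 were higher and 4 lower, beside 17% of all genes lower. The largest difference was that of Fe_g41707.2, a leucine-rich repeat receptor-like kinase, a class of cell surface receptors. It ran over 0.215, 3.46 and 10.4 TPM in the low and 0.701, 1.83 and 8.36 TPM in the high trees, a difference of -0.39 ± 0.13 (SE, adjusted p = 0.012) that was called with tree number as a covariate (-0.41) and not within trees numbered up to 180 (-0.27, adjusted p = 0.18). Fe_g22337, of the same class, had -0.34 ± 0.11 (SE), and the serine/threonine kinase Fe_g10961.1 had -0.23 ± 0.06 (SE). Both were uncalled with tree number as a covariate (-0.31, adjusted p = 0.083, and -0.09, adjusted p = 0.40), and Fe_g10961.1 had -0.01 within trees numbered up to 180. Fe_g33197.2, an AFC2 kinase of a family that phosphorylates splicing factors, ran over 14.7, 20.4 and 25.1 TPM in the low and 12.2, 17.7 and 26.4 TPM in the high trees, a difference of -0.20 ± 0.04 (SE, adjusted p = 7.9e-05). It was called with tree number as a covariate and not within trees numbered up to 180 (-0.09, adjusted p = 0.11), where none of the 4 kinases was called.

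Membrane trafficking and calcium genes were mostly uncalled, with 1 of 8 lower and 0 higher in each list, beside 17% and 14.1% of all genes. The trafficking gene was Fe_g18776, an epsin that links cargo to clathrin coats, with 2.27, 3.31 and 5.02 TPM in the low and 1.54, 2.41 and 4.84 TPM in the high trees. In 16 of 45 high trees it was below the lowest low tree, and the difference was -0.29 ± 0.05 (SE, adjusted p = 6.8e-06), called with tree number as a covariate (-0.18) and with 5 principal components (-0.20) and not within trees numbered up to 180 (-0.13, adjusted p = 0.074). The calcium and second messenger gene was Fe_g32367.1, a protein phosphatase 2C, with medians of 18.4 and 15.9 TPM and a difference of -0.16 ± 0.06 (SE) that became -0.05 with tree number as a covariate and 0.03 within trees numbered up to 180. With median-of-ratios scaling Fe_g32367.1 was uncalled (limma, adjusted p = 0.061).

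Beside 17% of all genes lower and 14.1% higher, in the auxin and transport list 1 of 4 genes was lower, the auxin response factor Fe_g31540 (ARF17), with medians of 1.40 and 0.947 TPM and a difference of -0.27 ± 0.07 (SE, adjusted p = 0.0013), uncalled with tree number as a covariate (-0.15). Of 7 cell wall enzymes 1 was lower, Fe_g7485, a polysaccharide biosynthesis protein, with medians of 2.19 and 1.52 TPM and a difference of -0.27 ± 0.11 (SE). It was called with tree number as a covariate (-0.34, adjusted p = 0.047) and uncalled within trees numbered up to 180 (-0.14, adjusted p = 0.43), with bands of numbers (adjusted p = 0.12) and with 5 principal components (adjusted p = 0.10). Of 5 AP2 and ethylene response genes 1 was higher, the ethylene-responsive factor Fe_g44002, with medians of 0.891 and 1.99 TPM and a difference of 0.46 ± 0.17 (SE, adjusted p = 0.026), uncalled with tree number as a covariate (0.52, adjusted p = 0.055). It was called with bands of numbers (0.75, adjusted p = 0.0095) and within trees numbered up to 180 (0.80, adjusted p = 0.0021). In that range it was also called with tree number as a covariate (0.66, adjusted p = 0.016). With 5 principal components it turned to -0.10, uncalled (adjusted p = 0.81).

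Fe_g6059 and Fe_g30083 were higher by small amounts and were also called with tree number in the model. Fe_g6059, a TOPLESS-related co-repressor, had medians of 3.09 TPM in the low and 3.51 TPM in the high trees and a difference of 0.20 ± 0.07 (SE), with 0.30 with tree number as a covariate and 0.37 within trees numbered up to 180. Fe_g30083, a fatty acyl desaturase of the sphingolipid and lipid list, had medians of 11.3 and 12.5 TPM and a difference of 0.19 ± 0.06 (SE), with 0.25 and 0.31 under the same fits. Both were called in each of these fits and were called rising in the middle trees. Neither was called with 5 principal components. The F-box gene Fe_g21651, the 1 called member of 7 protein degradation genes, had medians of 2.21 and 2.43 TPM (difference 0.12 ± 0.05, SE). It was uncalled with tree number as a covariate (0.05, adjusted p = 0.58) and within trees numbered up to 180 (0.14, adjusted p = 0.065). Of 3 OVATE family repressors 0 were called.

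The scoring genes were also entered together, each standardised, over all 182 trees, so that each slope describes a gene's relation to 1 scoring gene at a given level of the other. With Fe_g35175.1, 3435 genes rose (11.1%) and 12761 fell (41.2%). With Fe_g3105, 11980 rose (38.6%) and 3361 fell (10.8%), 49.5% in either direction. The slopes differed for 52.2% of genes, with the slope on Fe_g35175.1 above that on Fe_g3105 in 11.1% and below it in 41.1%. The most frequent pattern, in 10367 genes, was a negative slope on Fe_g35175.1 and a positive slope on Fe_g3105, and 2568 genes showed the reverse. Both slopes were called rising for 27 genes and both falling for 3. The 2 scoring genes had r of 0.838 over these trees, so the errors of the 2 slopes tend to go in opposite directions. Slopes of opposite sign are thus in part built in, as is the small number of genes with both slopes in 1 direction. Of the genes at least 2-fold higher in the high trees, 48 (40.7%) rose with Fe_g35175.1, beside 11.1% of all genes. With Fe_g3105 51 of them (43.2%) rose, close to the 38.6% of all genes, and 18 (15.3%) rose with both. These genes were chosen by the mean of the same 2 scoring genes, so rising slopes are in part built in.

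This contrast between the scoring genes depended on how TPM was scaled. With median-of-ratios scaling the counts were 7722 rising and 7820 falling with Fe_g35175.1 and 7370 rising and 7329 falling with Fe_g3105. With 5 principal components as covariates they were 31 and 14, and 53 and 31. The difference of the 2 standardised scoring genes had r of 0.49 with the second and 0.33 with the first principal component over the 182 trees, which share their scaling. The direction of the split therefore cannot be read from TPM alone. Single genes moved with the scaling to different degrees. For Fe_g36608 the slopes in TPM as deposited were -0.23 on Fe_g35175.1 and 0.01 on Fe_g3105 and differed (adjusted p = 0.0034), but with median-of-ratios scaling they were -0.12 and -0.09 and the difference was not called (adjusted p = 0.78). For Fe_g40731 they were -0.03 and 0.31 (difference, adjusted p = 0.0036), and 0.0018 and 0.28 with median-of-ratios scaling (adjusted p = 0.016). With 5 principal components neither difference was called (adjusted p = 0.94 and 0.98).

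The 10 trees with a score above 2 were set beside the other 35 high trees. Described without a test and with no value for chance, 0.494% of the genes tested had a mean at least 1 log2 unit higher in those 10 trees than in the other 35, and 1.01% a mean at least 1 unit lower. Of the genes at least 2-fold higher in the high group, 20 (16.9%) were a further 1 unit higher in the 10 trees, while 61 (51.7%) were lower in them than in the other 35, with a median difference of -0.12. Over 182 trees 97 genes had r of 0.5 or more with the score and 34 had r of -0.5 or less. Over the trees with a score at or under 2 the counts were 73 and 21, and 56 genes reached 0.5 in both.

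The slope on the score was also compared between the 2 ascending series of the sample list. It differed for 24.7% of genes, rising more in the second series for 5913 (19.1%) and more in the first for 1730 (5.58%). With median-of-ratios scaling the counts were 2977 and 3388, so the excess in the second series turned, and with 5 principal components as covariates they were 0 and 0 (limma, 849 and 1277 at an unadjusted p under 0.05). In the second series alone, with 12 high against 7 low trees, limma called 0 genes, and 2915 were higher and 885 lower at an unadjusted p under 0.05.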

How the data were processed

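The deposited values are TPM, which the authors made by trimming 100 bp Illumina reads of an earlier study with Trimmomatic, quantifying them with Salmon 0.8 against the coding sequences of their long-read ash genome and importing the estimates with tximport in R 4.3.3. TPM sums to 1000000 in each tree and keeps no depth, so no counting interval is given, and a few abundant genes can lower all others. Columns were matched to trees by the run named in the sample title.

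From these values log2(TPM + 1) was computed, with a filter of 1 TPM in at least 19 trees. Groups of 45 trees were compared with limma 3.58.1 (R 4.3.3, eBayes with trend, two-sided, Benjamini-Hochberg adjustment over all genes, call at 0.05), and library measures with permutation tests of 100000 resamples and Fisher's exact test (Python 3.11.15, scipy 1.17.1). The limma step was tested on these values with each gene shuffled separately over the high and low trees and 200 genes given a known difference. Such shuffling removes the correlation between genes and the tie to tree number, so the test does not cover them. Because the groups come from 2 measured genes, a call is covariation with the score and not an effect of heat.

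Named genes were both scoring genes, all heat shock, chaperone, prohibitin and MADS-box genes of the lists, from every other list at most 4 called genes, taken by size of difference, and the 2 highest and 2 lowest unannotated identifiers by moderated t. The members and lists were chosen with earlier results of these data known. Annotations come from the study's annotation of its damage-associated genes. No gene sequences or positions are used here. Alternatives were the pseudocount (0.1), no filter, median-of-ratios scaling, covariates (genes above 0, share of the 10 most abundant genes, 1 or 5 principal components, series of the sample list), each series alone, group sizes of 30 and 60, the score as a number, scores from 1 gene or from unlogged TPM, and a Wilcoxon test. Fits with tree number or bands of 20 numbers, within trees numbered up to 180, and without the high trees with a score above 2 were chosen after seeing the data.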

Additional observations from a re-analysis of the deposited data

Results flagged for a closer look

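The sample list holds 2 ascending series of tree numbers, the second with 40 trees, which the labels do not call batches. The slope of a gene on the heat shock score was compared between them by an interaction term in limma over all 182 trees. The slopes differed for 5913 genes that rose more in the second series (19.1% of those tested) and for 1730 that rose more in the first (5.58%), which singled this difference out. With median-of-ratios scaling the counts were 2977 and 3388, and with 5 principal components as covariates 0 and 0 (849 and 1277 at an unadjusted p under 0.05). In the second series alone, with 12 high and 7 low trees, limma called 0 genes (2915 higher and 885 lower at an unadjusted p under 0.05, lowest adjusted p = 0.071). There 72.9% of the genes at least 2-fold higher and 17 of the 19 at least 2-fold lower had the sign of the whole comparison, with differences of 2.04 for Fe_g19570, -0.83 for Fe_g7621, -0.27 for Fe_g36608, 0.28 for Fe_g40731 and -0.25 for Fe_g33132. These trees are part of the comparison that chose the genes, so agreement in sign is in part built in. No share of signs over all genes is given beside it. The cause of the difference between series was not tested.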

How the results depend on the processing

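No paired analysis was possible because the labels place all trees in 1 group and share no replicate number between groups. TPM keeps no depth, scoring genes near 1 TPM may rest on few reads, and the comparison of high with low trees cannot be made above number 180, where there are 0 low trees. For 40 named genes under 22 other settings, 631 differences had the direction and call of the comparison, 189 lost the call, 22 gained one and 38 changed sign. Some settings held fewer trees. The causes of the changes below, the number of trees among them, were not tested.

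With 5 principal components, 1707 genes were higher and 1441 lower, the middle trees gave 1 rising and 0 falling, slopes on Fe_g35175.1 gave 31 and 14, on Fe_g3105 53 and 31, their difference 3 and 2, the comparison of series 0 and 0, and 1 annotated gene was higher. Fe_g36254 turned to 0.057, Fe_g44002 to -0.10 and Fe_g21651 to -0.051. With median-of-ratios scaling the middle trees gave 1882 falling, slopes on Fe_g35175.1 7722 and 7820, on Fe_g3105 7370 and 7329, their difference 7713 and 7749 and the comparison of series 2977 and 3388, and Fe_g36254 turned to 0.012.

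With tree number as a covariate the middle trees gave 1303 rising and 376 falling, and 4 annotated genes were higher and 10 lower. Fe_g36128 turned to -0.12, Fe_g40350 to -0.16, Fe_g40353 to -0.0073, Fe_g18373.1 to -0.021 and Fe_g18374 to -0.34. With bands of numbers 5 annotated genes were higher and 7 lower, Fe_g36128 turned to -0.14 and Fe_g36254 to 0.027. Within trees numbered up to 180 the middle trees gave 923 rising and 310 falling, 7 annotated genes were lower and 7 identifier neighbours were called. Fe_g36128 turned to -0.25, Fe_g3121 to 0.0082, Fe_g36254 to 0.024, Fe_g10721 to 0.10, Fe_g32367.1 to 0.028 and Fe_g39849.1 to 0.014. With tree number as a covariate in that range 7 annotated genes were higher and 5 lower, Fe_g36128 turned to -0.22, Fe_g40350 to -0.084, Fe_g18374 to -0.16, Fe_g10721 to 0.060, Fe_g32367.1 to 0.015 and Fe_g39849.1 to 0.012.

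With the score as a number over 182 trees, 2900 genes rose and 3300 fell, and 3 annotated genes rose. With Fe_g35175.1 alone as the score 9569 genes were lower, 3 annotated genes were higher and 29 lower, 7 neighbours were called, Fe_g36128 turned to -0.088 and Fe_g40350 to -0.12. With Fe_g3105 alone 2088 genes and 11 annotated genes were lower and Fe_g36254 turned to 0.11. In the second series alone (12 against 7 trees) limma called 0 genes higher and 0 lower, 0 annotated genes in either direction and 0 neighbours (2915 and 885 of all genes at an unadjusted p under 0.05), Fe_g22999 turned to 0.21, Fe_g36254 to 0.20, Fe_g45829 to 0.019, Fe_g7485 to 0.025 and Fe_g39849.1 to 0.072.

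With 30 against 30 trees 2 neighbours were called, and genes above 0 (a difference of 230.3) and the first principal component (28.3) no longer passed. With 60 against 60 trees 7 neighbours were called, genes above 0 (162.7) no longer passed, Fe_g36128 turned to -0.038 and Fe_g36254 to 0.0013. Without the high trees with a score above 2, Fe_g36128 turned to -0.13 and Fe_g36254 to 0.034. Fe_g36254, uncalled in the comparison, also turned to 0.018 with the first principal component, 0.0047 with the series and 0.0019 with the share of the 10 most abundant genes as a covariate.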
